A study of Mus musculus with 8 samples.

Results

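Inward-rectifier, two-pore-domain, calcium-activated and sodium-activated potassium channel genes were compared between hippocampi of mice given KU55933 and of mice given vehicle. The genes were taken by symbol, as those named Kcnj, Kcnk, Kcnn, Kcnt or Kcnu with a number, or Kcnma or Kcnmb. Kcnj8 and Kcnj13 were left out because they mark pericytes and choroid plexus. This gave 35 of the 19558 genes in the table: 12 inward rectifiers, 12 two-pore channels, 4 small- and intermediate-conductance calcium-activated channels (SK and IK), 4 genes of the large-conductance calcium-activated channel (BK), 2 sodium-activated channels and the pH-gated Slo3 gene Kcnu1.

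RNA-seq libraries, stranded and made from poly(A) RNA, came from the hippocampus of wild-type (WT) mice of the strain given as C57BL/6 KP at postnatal day 40. One group of 4 libraries came from mice that received KU55933, a small-molecule blocker of the DNA damage kinase ATM, through the nose at 7.5 mg/kg. The other group of 4 came from mice that received the vehicle, 4% DMSO in saline, by the same route. Both groups were anesthetized, and the labels give 4 samples in each. The sources used here do not give the time between dosing and collection, and the extraction text names RNA amounts for hypothalamus and PFC although every sample is labelled hippocampus.

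These channels pass potassium across the cell membrane, and many of them affect how easily a neuron fires. Inward rectifiers pass potassium best near the resting potential and include the G protein-gated GIRK channels that inhibitory receptors open, the ATP-sensitive channel and the astrocyte channel that clears potassium after firing. Two-pore channels give a steady leak, while SK and BK channels open when calcium enters during a spike and shape the afterpotential that follows it, in the hippocampus as elsewhere.

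Library totals were 34190440 to 37499003 estimated counts in KU55933 and 40586998 to 46630341 in vehicle. The slope of log2 expression on GC content across genes differed in sign between the groups. Per 10 points of GC it was -0.28, -0.35, -0.12 and -0.12 in KU55933 1 to 4, and 0.14 to 0.27 in vehicle. Each channel tested is therefore given with its change in a second fit, called the offset from here on. It removes each library's trend with GC content and transcript length. Since the sign of the slope went with the group, it also removes any group difference that follows GC content or length. The source of the trend was not tested. Markers of dentate granule, CA1 and CA3 neurons were detected in every group, and none of the markers on 11 cell type lists was at 0 in all libraries. Choroid plexus markers summed to 1176 and 1252 CPM (counts scaled to library size) in KU55933 1 and 2, 75.8 and 59.4 CPM in KU55933 3 and 4, and 52.8 to 114 CPM in vehicle.

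Of the 35 channel genes, 31 had enough counts to test. By edgeR's quasi-likelihood F test, Benjamini-Hochberg adjusted over all 15481 genes tested, 5 channel genes fell in KU55933 and 3 rose. Over all genes 21.6% were called, 14.6% lower and 6.92% higher, so the share of channels called was near that of genes in general. The genes that fell were Kcnj4, Kcnmb4, Kcnk12, Kcnn1 and Kcnj11, and those that rose were Kcnn3, Kcnj16 and Kcnt2. The median log2 change of the 31 was -0.04, against 0.01 over all genes. With the GC and length offset, Kcnj4 was the channel called lower and Kcnn3 the one called higher, where 1.96% of all genes were called, 1.29% lower and 0.672% higher. Of the 31, 4 were lower and 2 higher at an unadjusted p under 0.05 in that fit. The median was then 0.04 for the channels and 0.01 for all genes. Summed over the 35 genes, the level was 1414 to 1508 CPM in KU55933 and 1424 to 1476 CPM in vehicle.

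**Figure D1:**
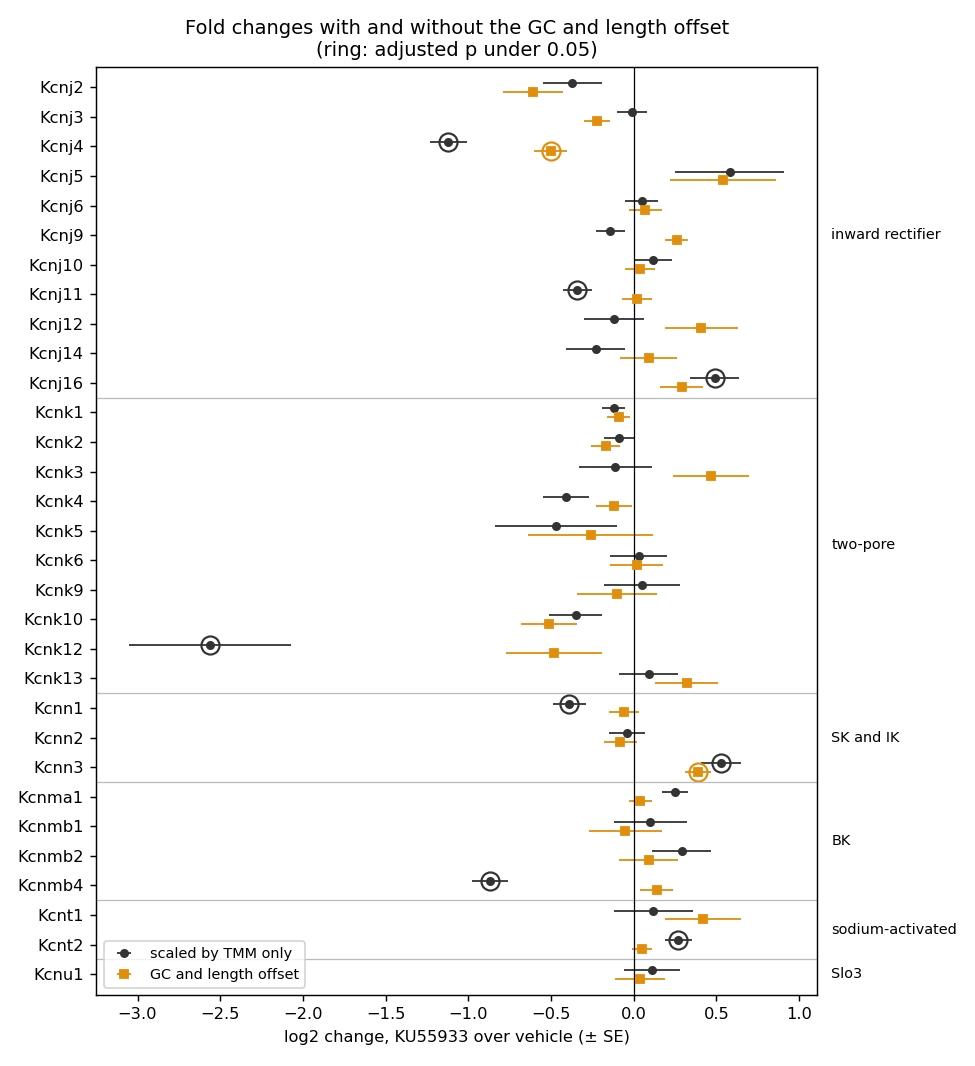
Log2 change of each of the 31 tested channel genes, KU55933 over vehicle, with its standard error, by channel class; circles are the fit scaled by TMM only and squares the fit with the GC and length offset. Rings mark an adjusted p under 0.05: 8 genes without the offset, and Kcnj4 and Kcnn3 with it.

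In 8 of the 31 genes the 2 groups did not overlap, 5 with KU55933 below vehicle and 3 above. Over all genes 26.7% did not overlap, 15.9% below and 10.7% above. The channel genes lower without overlap were the 5 that fell, and those higher were Kcnn3, Kcnj16 and Kcnma1. In bulk tissue, fewer cells of a type and less RNA per cell cannot be told apart.

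Per unit of transcript length, the most abundant channel mRNAs in KU55933 were Kcnj3 at 90.7 ± 11.9 TPM (transcripts by length and library size), Kcnj10 at 88.6 ± 10.9 TPM and Kcnma1 at 80.2 ± 9.79 TPM (SD, n = 4). In vehicle the same genes had 85.2 ± 2.58, 80.3 ± 9.39 and 66.1 ± 2.04 TPM, and Kcnk1 had 75.5 ± 2.06 TPM in KU55933 and 81.4 ± 4.90 TPM in vehicle. Kcnmb4 had 38.5 ± 3.05 TPM in KU55933 and 67.1 ± 6.06 TPM in vehicle. Kcnj4 likewise had 31.4 ± 1.03 TPM in KU55933 and 67.2 ± 9.41 TPM in vehicle. On this scale, both genes stood among the abundant channels in vehicle and lower in the order in KU55933. TPM is not corrected for GC content, and with the offset the log2 changes were 0.14 for Kcnmb4 and -0.50 for Kcnj4. At the other end, Kcnk5 had 0.329 ± 0.0574 TPM in KU55933 and 0.449 ± 0.228 TPM in vehicle.

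**Figure D2:**
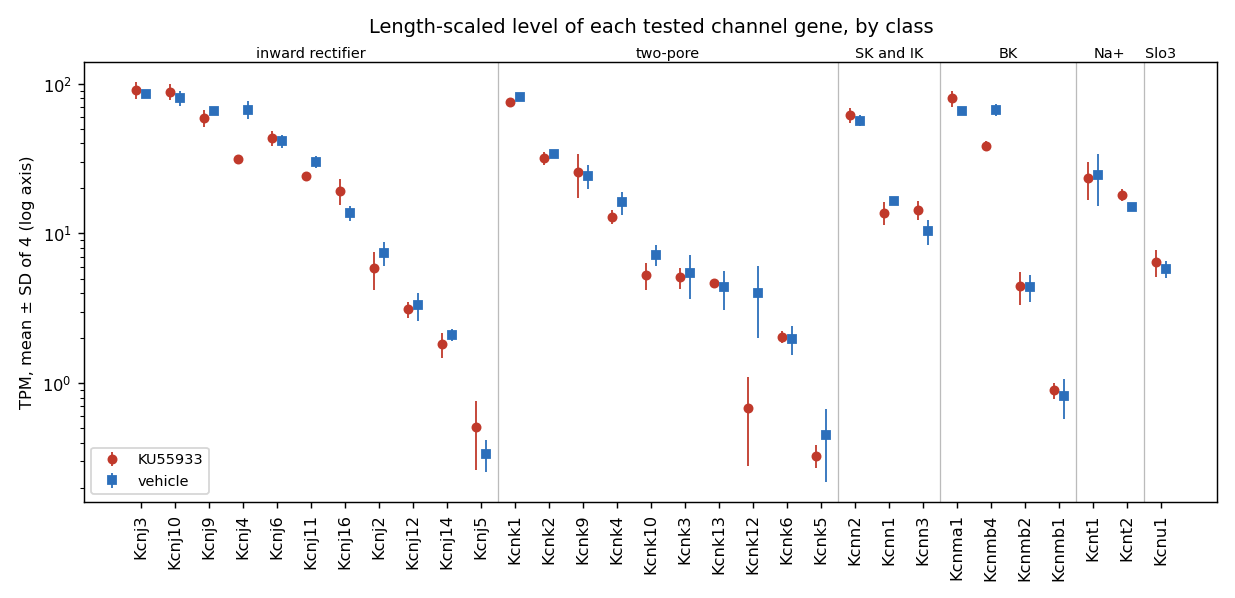
Level of each tested channel gene in TPM on a log axis, as mean ± SD of 4 libraries, KU55933 left of vehicle, ordered by level within each class. Kcnj4, Kcnmb4 and Kcnk12 show the widest gaps between the groups, with vehicle above KU55933. TPM is not corrected for GC content.

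The 4 genes too low to test held few counts per library. Kcnj15, which encodes Kir4.2, had 0 to 3 counts in KU55933 and 0 to 6 in vehicle. Kcnn4, the intermediate-conductance channel of blood cells and epithelia, had 4 to 6 counts in KU55933 and 5 to 7 in vehicle. Kcnk7 had 1 to 4 counts in KU55933 and 3 in each vehicle library. Kcnk15 had 0 counts in every KU55933 library, which allows up to 3 counts in each, and 0 to 4 in vehicle.

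Among the inward rectifiers, 2 of 11 tested genes fell and 1 rose, and none of these was a GIRK gene. Kcnj3 encodes GIRK1, the subunit that joins the others in most neuronal GIRK channels. It had 179, 166, 143 and 148 CPM in the 4 KU55933 libraries and 150, 167, 153 and 169 CPM in the 4 vehicle libraries. The groups overlapped, and its log2 change was -0.01 ± 0.09 (SE; edgeR's quasi-likelihood test, adjusted p = 0.964). Kcnj6, which encodes GIRK2, had a log2 change of 0.05 ± 0.10, Kcnj9, which encodes GIRK3, -0.14 ± 0.09, and the scarce Kcnj5, which encodes GIRK4, 0.58 ± 0.33. Of the 4 GIRK genes edgeR called 0, with 0 at an unadjusted p under 0.05, and DESeq2 and limma-voom also called 0. With the offset edgeR again called 0, but Kcnj9 turned to 0.26 ± 0.07 (unadjusted p = 0.00463, adjusted p = 0.11) and Kcnj3 had -0.22 ± 0.08 (edgeR, unadjusted p = 0.0177, adjusted p = 0.205). Kcnj5 and Kcnj6 then had 0.54 ± 0.32 and 0.07 ± 0.10. Their summed level was 298 ± 16.04 CPM in KU55933 and 306 ± 10.2 CPM in vehicle (SD, n = 4 each).

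The Kir2 genes encode strong inward rectifiers that hold the resting potential, and 1 of the 4 fell. Kcnj4, which encodes Kir2.3, had 28.7, 25.1, 28.7 and 28.5 CPM in the KU55933 libraries and 49.1, 69.2, 57.6 and 65.3 CPM in the vehicle libraries. Every KU55933 library lay far below every vehicle library. The fold was 2.17 lower in KU55933, with a log2 change of -1.12 ± 0.11 (SE; edgeR's quasi-likelihood test, adjusted p = 0.000504). With the offset the log2 change was -0.50 ± 0.10, smaller in size, and edgeR's adjusted p was 0.0428. That second call was lost when any of 6 of the 8 libraries was left out (KU55933 2, 3 or 4, or vehicle 2, 3 or 4), with adjusted p up to 0.128. Without KU55933 1 and 2 together the log2 change was -1.07 without the offset (edgeR, adjusted p = 0.00705) and -0.61 with it (edgeR, adjusted p = 0.139).

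Kcnj4 was the only Kir2 gene called, by edgeR as by DESeq2 and limma-voom. Kcnj2, which encodes Kir2.1, had 11.6, 17.8, 11.2 and 11.6 CPM in the KU55933 libraries and 13.7, 19.6, 14.3 and 19.7 CPM in the vehicle libraries, so the groups overlapped through KU55933 2. Its log2 change was -0.37 ± 0.18 (SE; edgeR, adjusted p = 0.158) and -0.61 ± 0.18 with the offset (edgeR, adjusted p = 0.137). Kcnj12 for Kir2.2 had -0.12 ± 0.18 and Kcnj14 for Kir2.4 had -0.23 ± 0.18. With the offset these turned to 0.41 ± 0.22 and 0.09 ± 0.17. The ratio of Kcnj4 to Kcnj2 in CPM was 1.41 to 2.56 in KU55933 libraries and 3.32 to 4.01 in vehicle libraries, without overlap. It is not corrected for GC content, and with the offset the log2 changes of the 2 genes were -0.50 and -0.61.

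The Kir2 pore stretches are shown because the gene that fell and its closest abundant relative differ in base composition. Each line gives 87 bases of the coding sequence from the GENCODE M21 transcripts (mouse build GRCm38), 5′ to 3′, with the selectivity filter in capitals.
Kcnj4: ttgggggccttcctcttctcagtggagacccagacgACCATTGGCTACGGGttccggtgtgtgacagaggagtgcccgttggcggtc
Kcnj2: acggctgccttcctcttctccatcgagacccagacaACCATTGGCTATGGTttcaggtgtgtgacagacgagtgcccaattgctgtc
The 2 stretches differed at 16 of 87 bases, 10 of them at the third codon position. Kcnj4 had G or C at 25 of 29 such positions and Kcnj2 at 19. Over the whole mRNA, GC content was 59.3% for Kcnj4 and 41.2% for Kcnj2.

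Kir4 and Kir5 subunits form the potassium-clearing channels of astrocytes. Kcnj10, which encodes Kir4.1, had 220, 185, 215 and 166 CPM in the KU55933 libraries and 211, 165, 175 and 173 CPM in the vehicle libraries. The groups overlapped, and its log2 change was 0.12 ± 0.11 (SE; edgeR, adjusted p = 0.45), and 0.04 ± 0.09 with the offset. Kcnj16 encodes Kir5.1, which assembles with Kir4.1, and it had 38.5, 25.7, 28.6 and 23.9 CPM in the KU55933 libraries and 23.8, 19.7, 21.1 and 18.7 CPM in the vehicle libraries. KU55933 1 stood highest, and the lowest KU55933 library was just above the highest vehicle one. It rose 1.4-fold (log2 change 0.49 ± 0.15, SE; edgeR, adjusted p = 0.0383). Its log2 change with the offset was 0.29 ± 0.13 (edgeR, adjusted p = 0.317).

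The Kcnj16 call was lost without KU55933 1, 2 or 3 or without vehicle 2, 3 or 4, with edgeR adjusted p up to 0.101. Without KU55933 1 and 2 together its log2 change was 0.34 (edgeR, adjusted p = 0.14). These libraries had high choroid plexus markers and also the most negative GC slopes. The 12 astrocyte markers summed to 5286 to 6960 CPM in KU55933 and 5423 to 6582 CPM in vehicle, with 2 called lower (Gfap among them) and 0 higher (2 at an unadjusted p under 0.05). The ratio of Kcnj16 to Kcnj10 in CPM, not corrected for GC content, was 0.133 to 0.175 in KU55933 and 0.108 to 0.12 in vehicle.

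Kcnj11 encodes Kir6.2, the pore of the ATP-sensitive channel that couples metabolism to firing. It had 30.0, 26.6, 31.2 and 32.8 CPM in the KU55933 libraries and 40.6, 39.96, 33.2 and 38.6 CPM in the vehicle libraries. The groups were separated narrowly, by KU55933 4 and vehicle 3. The gene fell 1.26-fold (log2 change -0.34 ± 0.09, SE; edgeR, adjusted p = 0.0271). With the offset the log2 change was 0.02 ± 0.09 (edgeR, adjusted p = 0.918). Its call was lost without KU55933 1 or 2 or vehicle 2 or 4, with edgeR adjusted p up to 0.0799.

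Of the 12 two-pore genes, 10 were tested, and edgeR called 1 lower and 0 higher (2 and 0 at an unadjusted p under 0.05). DESeq2 called 2 lower and 0 higher. The one that fell, Kcnk12, encodes THIK-2, a leak channel held largely inside the cell. It had 0.497, 0.479, 1.01 and 0.226 CPM in the KU55933 libraries and 2.37, 1.46, 4.52 and 4.83 CPM in the vehicle libraries. All KU55933 libraries were low, and the vehicle libraries split between vehicle 1 and 2, which were lower, and vehicle 3 and 4. These levels rested on 8 to 38 counts per library in KU55933 and 59 to 195 in vehicle. The fold was 5.89 lower (log2 change -2.56 ± 0.49, SE; edgeR, adjusted p = 0.0067), and the call held with each library left out in turn. Without KU55933 1 and 2 together, edgeR's adjusted p was 0.0937 at a log2 change of -2.38. With the offset the log2 change was -0.48 ± 0.29 (edgeR, adjusted p = 0.453).

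Kcnk12 had the highest GC content of the channel genes tested, at 69.4%, with G or C at 93.3% of codons' last positions. Its relative Kcnk13, which encodes the microglial channel THIK-1, had 55.5% GC. The pore stretches of this pair are shown in the same way, with the first selectivity filter in capitals.
Kcnk12: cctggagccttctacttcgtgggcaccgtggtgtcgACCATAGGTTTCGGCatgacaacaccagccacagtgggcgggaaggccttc
Kcnk13: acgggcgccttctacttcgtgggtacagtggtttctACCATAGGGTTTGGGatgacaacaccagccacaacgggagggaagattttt
They differed at 17 of 87 bases, and at 12 of these Kcnk12 had G or C where Kcnk13 had A or T, with the opposite at 4.

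Kcnk13 had 6.09, 5.78, 5.80 and 5.95 CPM in the KU55933 libraries and 7.46, 3.73, 6.05 and 4.98 CPM in the vehicle libraries. The KU55933 values lay inside the vehicle range, with a log2 change of 0.09 ± 0.18 (SE; edgeR, adjusted p = 0.765) and, with the offset, of 0.32 ± 0.19 (edgeR, adjusted p = 0.436). The 6 microglial markers summed to 251 to 306 CPM in KU55933 and 259 to 304 CPM in vehicle, and edgeR called 0 of the 6 (1 lower and 1 higher at an unadjusted p under 0.05).

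The abundant leak channels did not pass the test either. Kcnk9, which encodes the acid-sensitive TASK-3, had 75.8, 156, 121 and 161 CPM in the KU55933 libraries and 96.0, 121, 149 and 131 CPM in the vehicle libraries. Its spread within KU55933 was wider than any gap between the groups (log2 change 0.05 ± 0.23, SE; edgeR, adjusted p = 0.903; with the offset -0.10 ± 0.24). Kcnk1, which encodes TWIK-1, a leak channel of neurons and astrocytes, had 72.7, 64.9, 67.9 and 66.9 CPM in the KU55933 libraries and 74.0, 75.8, 66.7 and 78.9 CPM in the vehicle libraries. Only vehicle 3 lay among the KU55933 values, and the log2 change was -0.12 ± 0.07 (SE; edgeR, adjusted p = 0.268), or -0.09 ± 0.07 with the offset.

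The mechanically and lipid-gated TREK and TRAAK genes all had negative values, none past the test. Kcnk2, which encodes TREK-1, had 44.6, 35.5, 42.3 and 35.8 CPM in the KU55933 libraries and 44.3, 43.1, 41.6 and 39.6 CPM in the vehicle libraries. KU55933 2 and 4 were low and the groups overlapped (log2 change -0.09 ± 0.09, SE; edgeR, adjusted p = 0.478; with the offset -0.17 ± 0.09). For TREK-2, Kcnk10 had a log2 change of -0.35 ± 0.16 (SE; edgeR, adjusted p = 0.134) and -0.51 ± 0.17 with the offset (edgeR, adjusted p = 0.178). For TRAAK, Kcnk4 was just outside the threshold at -0.41 ± 0.14 (SE; edgeR, adjusted p = 0.052), and at -0.12 ± 0.11 with the offset. These 3 genes summed to 57.9 to 64.2 CPM in KU55933 and 66.4 to 73.3 CPM in vehicle.

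Kcnk5, which encodes the alkaline-activated TASK-2 of the TALK group, was scarce, at 0.585, 0.423, 0.373 and 0.451 CPM in the KU55933 libraries and 1.01, 0.322, 0.778 and 0.421 CPM in the vehicle libraries. Vehicle 1 and 3 were high, vehicle 4 lay within the KU55933 range and vehicle 2 below it (log2 change -0.47 ± 0.37, SE; edgeR, adjusted p = 0.378; with the offset -0.26 ± 0.38). The remaining pair, Kcnk3 for TASK-1 and Kcnk6 for TWIK-2, had log2 changes of -0.11 ± 0.22 and 0.03 ± 0.17. With the offset Kcnk3 turned to 0.47 ± 0.23 (edgeR, adjusted p = 0.356), and Kcnk6 had 0.02 ± 0.16.

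SK channels are opened by calcium bound to calmodulin and shape the afterhyperpolarization, and of the 3 tested genes 1 fell, 1 rose and 1 was not called. Kcnn1, which encodes SK1, had 13.4, 10.8, 12.8 and 14.5 CPM in the KU55933 libraries and 16.8, 16.3, 16.8 and 17.5 CPM in the vehicle libraries. The vehicle libraries were close together and all above KU55933. Kcnn1 fell 1.31-fold (log2 change -0.39 ± 0.10, SE; edgeR, adjusted p = 0.0215), and with the offset the log2 change was -0.06 ± 0.09 (edgeR, adjusted p = 0.776). The call was lost without vehicle 3 or 4, with edgeR adjusted p up to 0.0617.

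Kcnn2, which encodes SK2, the main SK subunit of CA1 pyramidal neurons, had 39.2, 39.0, 47.5 and 49.0 CPM in the KU55933 libraries and 44.6, 38.7, 51.7 and 45.2 CPM in the vehicle libraries. The groups overlapped throughout (log2 change -0.04 ± 0.11, SE; edgeR, adjusted p = 0.793; with the offset -0.08 ± 0.10). Kcnn3 encodes SK3 and had 42.5, 46.6, 39.5 and 34.4 CPM in the KU55933 libraries and 34.02, 25.5, 26.6 and 27.1 CPM in the vehicle libraries. KU55933 4 and vehicle 1 all but met, while the other libraries were well apart. Kcnn3 rose 1.44-fold (log2 change 0.53 ± 0.12, SE; edgeR, adjusted p = 0.0111), and this call held with each library left out in turn.

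With the offset Kcnn3 kept a log2 change of 0.39 ± 0.08 (edgeR, adjusted p = 0.0466), and with an offset for GC content alone edgeR's adjusted p was 0.0889. The call with the GC and length offset was lost without KU55933 1, 2 or 3 or vehicle 2, 3 or 4, with edgeR adjusted p up to 0.144. Without KU55933 1 and 2 together the log2 change was 0.39 (edgeR, adjusted p = 0.112). The ratio of Kcnn3 to Kcnn1 in CPM was 3.17, 4.33, 3.10 and 2.37 in the KU55933 libraries and 2.03, 1.56, 1.58 and 1.55 in the vehicle libraries, without overlap. In TPM the ratio was 0.697 to 1.44 in KU55933 and 0.561 to 0.779 in vehicle, and the groups overlapped. Neither scale corrects for GC content. Markers of subcortical neurons summed to 161 to 224 CPM in KU55933 and 151 to 168 CPM in vehicle. Of the 8, 3 were called higher (Slc17a6, Tcf7l2 and Rora) and 0 lower, where 6.92% of all genes were called higher. With the offset these 3 genes had log2 changes of 1.08, 0.69 and 0.22, none called (edgeR, adjusted p = 0.0618, 0.163 and 0.244). The part of these markers in the Kcnn3 result was not tested.

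The SK pair that moved in opposite directions differs in GC content averaged over each gene's transcripts (56.6% for Kcnn1 and 48.0% for Kcnn3). Most Kcnn3 counts were on a transcript annotated as retained intron, and the coding sequences had 60.0% and 56.4% GC. The pair is alike at the pore, as the following stretches show.
Kcnn1: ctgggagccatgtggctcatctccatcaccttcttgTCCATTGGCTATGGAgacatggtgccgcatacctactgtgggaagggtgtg
Kcnn3: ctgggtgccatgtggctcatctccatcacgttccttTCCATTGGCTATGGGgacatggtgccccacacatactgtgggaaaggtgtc
They differed at 10 of 87 bases, 9 of them at the third codon position, and both had 55.2% GC in this stretch.

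BK channels join a pore encoded by Kcnma1 to auxiliary beta subunits, of which beta4, from Kcnmb4, is the main one in neurons, where it slows gating and makes the channel resist the toxin iberiotoxin. Kcnmb4 fell and Kcnma1 stood just outside the threshold in the other direction. Kcnmb4 had 22.2, 16.3, 21.5 and 21.01 CPM in the KU55933 libraries and 32.3, 37.0, 38.0 and 41.2 CPM in the vehicle libraries. The groups were widely separated, with KU55933 2 the lowest. The fall was 1.83-fold (log2 change -0.87 ± 0.11, SE; edgeR, adjusted p = 0.000773), and the call held with each library left out in turn and without KU55933 1 and 2 together (edgeR, adjusted p = 0.00687). With the offset the direction turned, to a log2 change of 0.14 ± 0.10 (edgeR, adjusted p = 0.501). Averaged over its transcripts, the GC content of Kcnmb4 was 62.4%.

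Kcnma1 had 424, 403, 353 and 335 CPM in the KU55933 libraries and 318, 320, 327 and 313 CPM in the vehicle libraries. All KU55933 libraries were above all vehicle libraries, with KU55933 1 and 2 highest (log2 change 0.25 ± 0.08, SE; edgeR, adjusted p = 0.0543). DESeq2 called it higher (adjusted p = 0.0195). With the offset its log2 change was 0.04 ± 0.07 (edgeR, adjusted p = 0.79), and without KU55933 1 and 2 together it was 0.11 (edgeR, adjusted p = 0.302). The ratio of Kcnmb4 to Kcnma1 in CPM was 0.0523, 0.0403, 0.0607 and 0.0628 in the KU55933 libraries and 0.102, 0.116, 0.116 and 0.132 in the vehicle libraries. On the TPM scale, which takes account of length, the ratio was 0.379 to 0.562 in KU55933 and 0.879 to 1.15 in vehicle. Neither scale corrects for GC content, which was 62.4% for Kcnmb4 and 45.3% for Kcnma1. With the offset the 2 genes had log2 changes of 0.14 and 0.04, so the difference seen in the ratio was not present there.

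The other beta subunits were scarce. Kcnmb2, whose product inactivates the channel, had a log2 change of 0.29 ± 0.18 (SE; edgeR, adjusted p = 0.279). Kcnmb1, the smooth muscle subunit, had 0.10 ± 0.22. With the offset these were 0.09 ± 0.18 and -0.05 ± 0.22. Markers of dentate granule neurons summed to 284 to 377 CPM in KU55933 and 339 to 538 CPM in vehicle. Of the 5, 1 was called lower (C1ql2), where 14.6% of all genes were called lower. With the offset C1ql2 had a log2 change of -0.43 (edgeR, adjusted p = 0.228). The part of these markers in the Kcnmb4 result was not tested.

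Sodium-activated channels open after bursts of spikes. Kcnt2, which encodes Slick, had 38.9, 39.4, 32.7 and 37.4 CPM in the KU55933 libraries and 32.7, 30.3, 31.1 and 28.7 CPM in the vehicle libraries. KU55933 3 and vehicle 1 met, so the groups overlapped there. It rose 1.21-fold (log2 change 0.27 ± 0.08, SE; edgeR, adjusted p = 0.0398), and with the offset the log2 change was 0.05 ± 0.06 (edgeR, adjusted p = 0.753). The call was lost without KU55933 1, 2 or 4 or vehicle 2, 3 or 4, with edgeR adjusted p up to 0.119.

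Kcnt1, which encodes Slack, had 27.7, 50.0, 48.4 and 49.5 CPM in the KU55933 libraries and 35.3, 34.9, 59.6 and 32.5 CPM in the vehicle libraries. One library in each group stood far from the rest, KU55933 1 on the low side and vehicle 3 on the high side (log2 change 0.12 ± 0.24, SE; edgeR, adjusted p = 0.758). Its value with the offset was 0.42 ± 0.23 (edgeR, adjusted p = 0.409). Kcnu1 encodes Slo3, the channel of sperm. Its mean transcript length was 1152 bases, and whether its counts came from a full channel mRNA was not tested. It had 2.98, 3.44, 2.40 and 3.30 CPM in the KU55933 libraries and 2.30, 2.84, 2.80 and 3.27 CPM in the vehicle libraries. Its groups overlapped (log2 change 0.11 ± 0.17, SE; edgeR, adjusted p = 0.657; with the offset 0.04 ± 0.15).

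**Figure D3:**
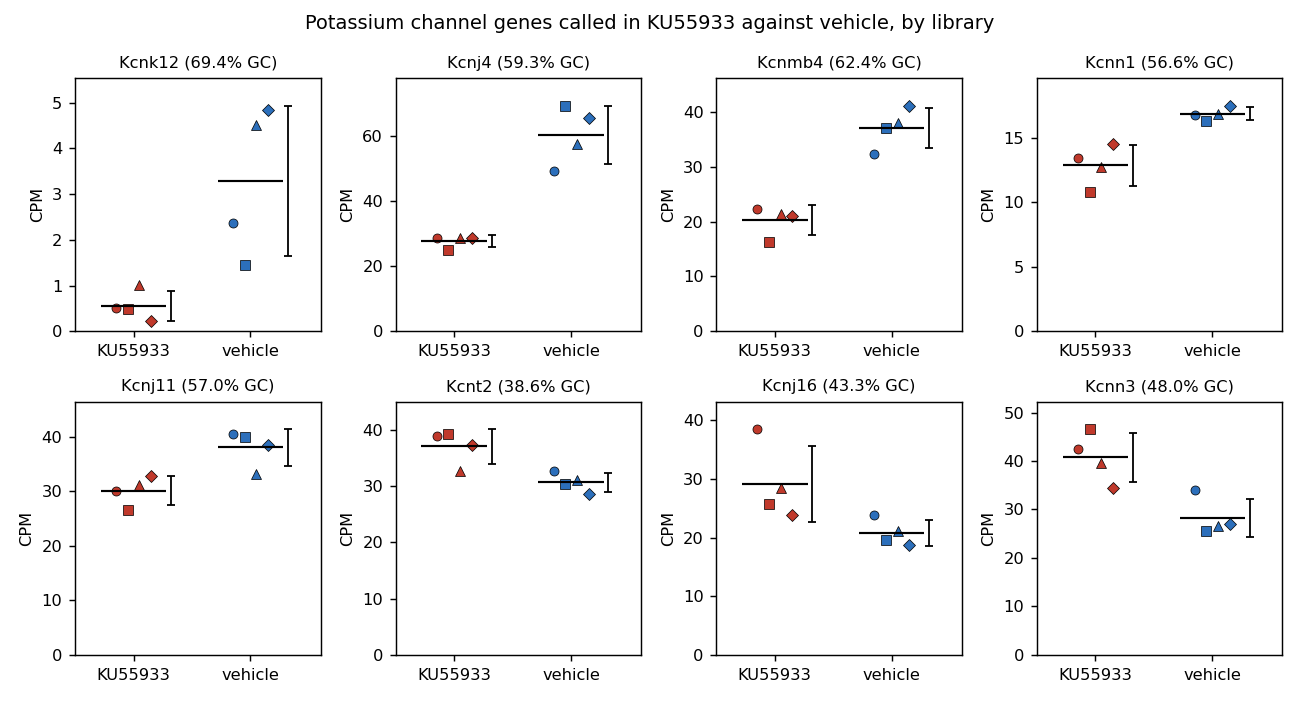
CPM of the 8 called channel genes in each of the 4 KU55933 and 4 vehicle libraries; circles, squares, triangles and diamonds are replicates 1 to 4, lines are means, bars are SD, and axes start at 0. The 5 genes in which KU55933 lies lower come first and have 56.6% to 69.4% GC, and the 3 in which it lies higher have 38.6% to 48.0% GC.

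The direction of a call went with base composition, which the choice of genes did not use. The 5 genes that fell had 56.6% to 69.4% GC and mean transcript lengths of 1309 to 3035 bases. The 3 that rose had 38.6% to 48.0% GC and mean transcript lengths of 3671 to 6773 bases, and the 23 that were not called had 41.2% to 59.1% GC. At the third codon position G and C made up 73.3% to 93.3% in the genes that fell, 43.7% to 69.8% in those that rose and 54.9% to 91.4% in the rest.

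Genes of the same base composition gave the background for each group of channels. Of the 13 tested channels at 55% GC and over, 5 fell and 0 rose, where 51.2% of all genes in that range were called lower and 0.105% higher. The 13 had a median log2 change of -0.34, and all genes in the range had -0.43. Among the 5 channels under 45% GC, 2 rose and 0 fell, where 21.5% of all genes were called higher and 0.206% lower. Between 45% and 55% GC, Kcnn3 was the 1 of 13 channels called, where 4.08% of genes were called higher and 3.73% lower.

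Across the 31 channels Spearman's rho between log2 change and GC content was -0.61, and it was -0.71 across 15470 genes. With the offset the values were 0.18 and -0.02. These describe genes measured in the same 8 libraries, which are not independent replicates. Among the called genes, the log2 change with the offset, which is the distance from the trend over genes, was -0.50 for Kcnj4, -0.48 for Kcnk12, 0.39 for Kcnn3 and 0.29 for Kcnj16. For Kcnn1, Kcnj11, Kcnt2 and Kcnmb4 it lay between -0.06 and 0.14. The distance depended on the trend used. With the offset fitted over transcripts, as given below, it was -0.24 for Kcnj4, 0.19 for Kcnk12 and 0.55 for the main Kcnmb4 transcript.

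**Figure D4:**
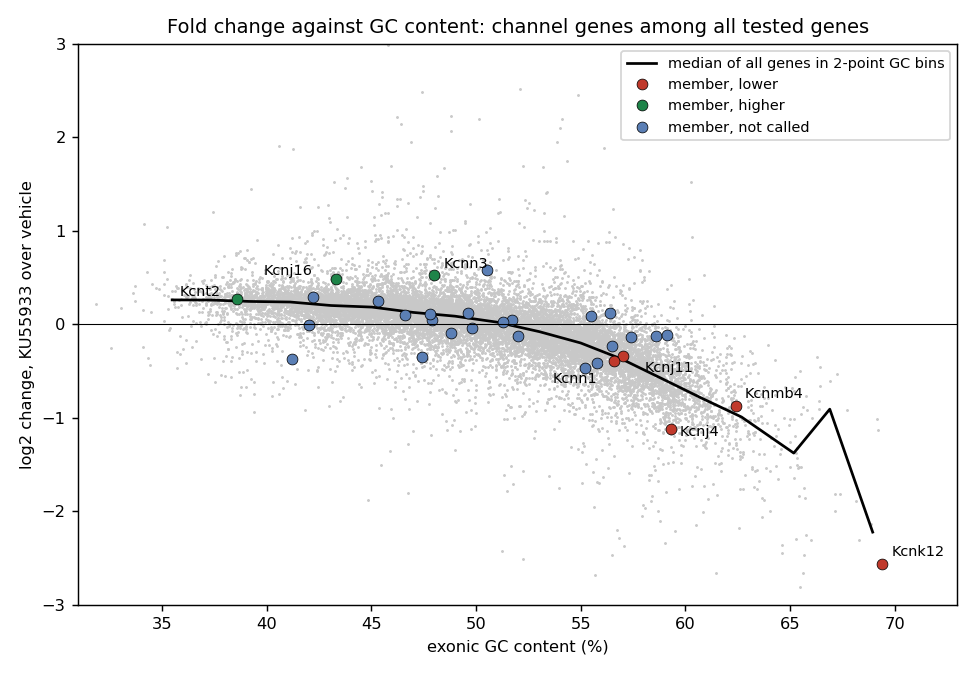
Log2 change of KU55933 over vehicle against exonic GC content for 15445 tested genes (grey; 25 lie beyond the axes) and the 31 channels, coloured by call; the line is the median of all genes in bins of 2 points of GC. The line falls with GC content above 45%, and the 5 channels that fell lie in that range. Kcnj4 lies below the line, and with the offset its log2 change was -0.50 and that of Kcnk12 -0.48.

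The table gives estimated counts for 117 transcripts of these genes, of which 71 were tested. How Salmon divides reads among overlapping transcripts is an estimate, so these values are less certain than gene sums. In edgeR's quasi-likelihood test per transcript 7 fell and 1 rose, where 6.76% of all transcripts were called, 5.7% lower and 1.06% higher. With the offset edgeR called 0 of the 71, where 2.06% of all transcripts were called (1.01% lower and 1.05% higher), although 5 were lower and 7 higher at an unadjusted p under 0.05. The single transcripts of Kcnj4 (log2 change -1.15 ± 0.12, adjusted p = 0.00247) and Kcnk12 (-2.58 ± 0.55, adjusted p = 0.0274) and the main one of Kcnmb4 (-0.94 ± 0.13, adjusted p = 0.00626) fell as their genes did. Fitted per transcript with the offset, these had log2 changes of -0.24, 0.19 and 0.55, against -0.50, -0.48 and 0.14 in the gene fit. For Kcnj4 edgeR's adjusted p with the offset was 0.50 per transcript and 0.0428 per gene. Kcnj4 had the same counts in both fits, and the scaling and the offset were fitted anew over all transcripts. Without the offset the Kcnk12 call was kept in 3 of 8 fits that left out 1 library (edgeR, adjusted p up to 0.108), and those of Kcnj4 and Kcnmb4 in 8 of 8.

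Kcnj3 showed a transcript call where the gene had none. Its transcript ENSMUST00000067101 had 65.1, 54.9, 64.9 and 63.0 CPM in the KU55933 libraries and 81.7, 88.0, 69.0 and 95.8 CPM in the vehicle libraries. All KU55933 libraries were below all vehicle libraries (log2 change -0.46 ± 0.11, SE; edgeR, adjusted p = 0.0457), and with the offset the log2 change was -0.52 (edgeR, adjusted p = 0.136). The other main coding transcript, ENSMUST00000112632, had 110, 105, 75.0 and 82.7 CPM in the KU55933 libraries and 64.3, 78.5, 79.7 and 73.5 CPM in the vehicle libraries, with KU55933 1 and 2 high (log2 change 0.30 ± 0.14, SE; edgeR, adjusted p = 0.272). The share of Kcnj3 counts on ENSMUST00000067101 was 33.1% to 45.4% in KU55933 and 45% to 56.6% in vehicle. The call was lost without any 1 library other than vehicle 3, with edgeR adjusted p up to 0.271, and it missed the threshold in DESeq2 (adjusted p = 0.0749) and limma-voom (adjusted p = 0.052).

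Most Kcnn3 counts, 87.3% to 91.1% in KU55933 and 81.7% to 90.0% in vehicle, were assigned to ENSMUST00000124584, annotated as a retained-intron transcript. It had 37.1, 42.4, 35.4 and 30.5 CPM in the KU55933 libraries and 27.8, 22.9, 22.6 and 23.9 CPM in the vehicle libraries. The groups did not overlap, and this transcript rose (log2 change 0.55 ± 0.13, SE; edgeR, adjusted p = 0.0415; with the offset 0.46, adjusted p = 0.0575). The call was kept in 2 of 8 fits that left out 1 library, with edgeR adjusted p up to 0.133. The protein-coding transcript ENSMUST00000000811 had 5.41, 4.14, 4.12 and 3.84 CPM in the KU55933 libraries and 6.23, 2.55, 3.99 and 3.20 CPM in the vehicle libraries. Its groups overlapped (log2 change 0.10 ± 0.30, SE; edgeR, adjusted p = 0.911), so the transcript called was the one without an annotated coding sequence; the difference between the transcripts was not tested.

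**Figure D5:**
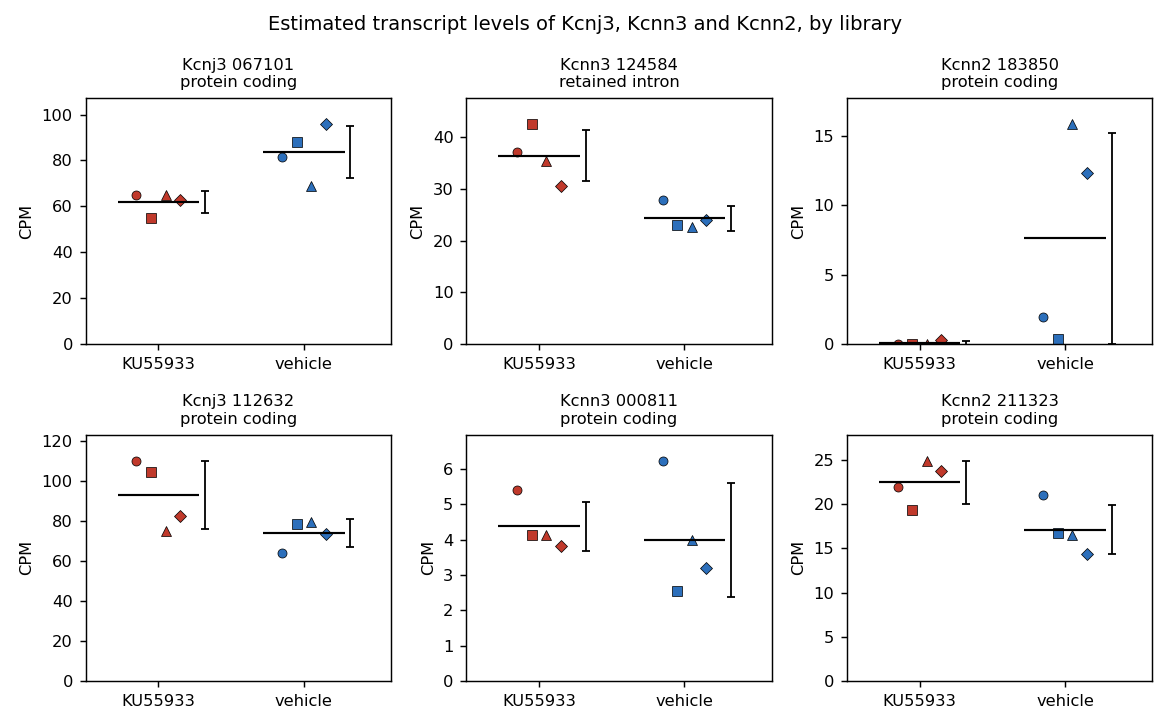
Estimated CPM of pairs of transcripts of Kcnj3, Kcnn3 and Kcnn2, named by the last 6 digits of their Ensembl identifier, in the 4 KU55933 and 4 vehicle libraries; symbols are replicates 1 to 4, lines are means and bars are SD. The upper row holds the transcripts that were called and the lower row transcripts of the same genes that were not.

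For Kcnn2, the minor coding transcript ENSMUST00000183850 had 0, 0, 0 and 0.282 CPM in the KU55933 libraries and 1.97, 0.346, 15.9 and 12.3 CPM in the vehicle libraries. Vehicle 3 and 4 carried nearly all of it (edgeR, adjusted p = 0.0445), the call was lost without any 1 library other than vehicle 2, and limma-voom gave an adjusted p of 0.495. With the offset the log2 change of this transcript was -6.39 (edgeR, adjusted p = 0.0921). The most abundant Kcnn2 transcript, ENSMUST00000211323, had 21.9, 19.3, 24.9 and 23.8 CPM in the KU55933 libraries and 21.01, 16.7, 16.5 and 14.4 CPM in the vehicle libraries. Vehicle 1 lay among the KU55933 values (log2 change 0.36 ± 0.15, SE; edgeR, adjusted p = 0.234). Minor transcripts of Kcnn1 (ENSMUST00000110078, 0.0564 to 0.346 CPM in KU55933 and 0.643 to 2.84 CPM in vehicle; edgeR, adjusted p = 0.0377) and Kcnk10 (ENSMUST00000221305, 0.225 to 0.373 CPM in KU55933 and 0.746 to 0.942 CPM in vehicle; edgeR, adjusted p = 0.0265) also fell. With the offset their log2 changes were -3.03 and -1.33 (edgeR, adjusted p = 0.0921 and 0.075). Leaving out 1 library kept the Kcnn1 transcript call in 3 of 8 fits and the Kcnk10 one in 2 of 8 (edgeR, adjusted p up to 0.124 and 0.107), and limma-voom gave the Kcnn1 transcript an adjusted p of 0.206.

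The main transcripts of the other genes given in full were not called. Kcnn1 had 92.8% of its counts in KU55933 and 83.3% in vehicle on ENSMUST00000212086, with a log2 change of -0.27 ± 0.13 (SE; edgeR, adjusted p = 0.282). Kcnj11, almost entirely ENSMUST00000211674, had -0.37 ± 0.10 (SE; edgeR, adjusted p = 0.0806). Kcnma1, almost entirely ENSMUST00000145596, had 0.22 ± 0.09 (SE; edgeR, adjusted p = 0.246). Kcnj16, with the single transcript ENSMUST00000106635, had 0.46 ± 0.17 in the fit per transcript (SE; edgeR, adjusted p = 0.184), and Kcnt2 had 0.29 ± 0.11 on ENSMUST00000120709 (SE; edgeR, adjusted p = 0.193). Log2 changes of the main transcripts of Kcnj10, Kcnk1, Kcnk5, Kcnk9, Kcnk13, Kcnt1 and Kcnu1 were 0.09, -0.12, -0.50, 0.02, -0.21, 0.16 and 0.10, none past the test, and that of Kcnk2 rounded to 0.

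Partners of these channels were read in the same gene fit, in which 14.6% of all genes were called lower and 6.92% higher. Of 16 receptors that open GIRK channels, 2 fell and 1 rose. The somatostatin receptor genes Sstr1 (8.41 ± 1.13 CPM in KU55933 and 12.1 ± 0.96 CPM in vehicle) and Sstr3 (36.7 ± 4.16 CPM in KU55933 and 44.7 ± 2.40 CPM in vehicle) were the 2 with the smallest p, and both fell (edgeR, adjusted p = 0.0117 and 0.0468). Of 24 G protein and GIRK regulator genes, 1 fell and 5 rose. Gnb2, a G protein beta subunit, fell to 142 ± 22.8 CPM in KU55933, against 234 ± 13.1 CPM in vehicle (edgeR, adjusted p = 0.0016). Rgs17, which shortens G protein signals, rose to 74.9 ± 12 CPM in KU55933, against 54.0 ± 7.16 CPM in vehicle (edgeR, adjusted p = 0.0259).

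Among 11 measured partner subunits of the ATP-sensitive, SK and BK channels, edgeR called 1 lower and 0 higher (2 and 2 at an unadjusted p under 0.05). That gene was Calm3, one of the calmodulin genes, at 1244 ± 142 CPM in KU55933 and 1705 ± 59.0 CPM in vehicle (edgeR, adjusted p = 0.00574). Of 14 genes for PIP2 supply and channel kinases, 2 fell and 1 rose. Pip5k1c, which makes the PIP2 that inward rectifiers need to open, fell to 259 ± 30.6 CPM in KU55933, against 381 ± 12.8 CPM in vehicle (edgeR, adjusted p = 0.00202). Plcb4, a phospholipase that breaks PIP2 down, rose to 23.3 ± 2.90 CPM in KU55933, against 15.6 ± 2.46 CPM in vehicle (edgeR, adjusted p = 0.011). In the fit with the offset the log2 changes were 0.04 for Sstr1, 0.07 for Sstr3, -0.05 for Gnb2, -0.01 for Calm3 and 0.03 for Pip5k1c, against -0.53, -0.29, -0.72, -0.45 and -0.56 without it. Those of Rgs17 and Plcb4 were 0.24 and 0.38, against 0.47 and 0.58. With the offset edgeR called 0 of the 65 genes on these 4 lists, with 0 lower and 8 higher at an unadjusted p under 0.05.

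The markers of the other cell types that the tissue could hold were read in the same fit. There, 14.6% of all genes were called lower and 6.92% higher. Of the 8 choroid plexus markers edgeR called 1 higher and 0 lower. Called lower were 2 of 8 pericyte and mural markers, 1 of 5 dentate granule markers, 2 of 5 CA1 markers, 2 of 5 CA3 markers and 2 of 7 interneuron markers, with 0 higher on each of these lists. At an unadjusted p under 0.05 in edgeR, 3 interneuron markers were higher, and 0 on each of the others. The interneuron list had a median log2 change of 0.21. The endothelial list had 1 of 6 lower and 1 higher, and edgeR called 0 of 7 oligodendrocyte markers (0 at an unadjusted p under 0.05). Markers of CA1 neurons summed to 334 to 514 CPM in KU55933 and 345 to 631 CPM in vehicle, and those of CA3 neurons to 256 to 314 CPM in KU55933 and 263 to 343 CPM in vehicle. Interneuron markers summed to 633 to 786 CPM in KU55933 and 609 to 704 CPM in vehicle. Endothelial markers summed to 207 to 254 CPM in KU55933 and 223 to 240.4 CPM in vehicle, and oligodendrocyte markers to 4254 to 5758 CPM in KU55933 and 3556 to 8094 CPM in vehicle. Pericyte markers summed to 262 to 317 CPM in KU55933 and 265 to 328 CPM in vehicle. With the offset edgeR called 0 of the 77 markers, with 8 lower and 13 higher at an unadjusted p under 0.05. The part of any of these cell types in the channel results was not tested.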

How the data were processed

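The series holds 8 poly(A)-selected RNA-seq libraries made with a TruSeq Stranded mRNA kit, per the labels' protocols, grouped by treatment as the labels state. The deposited table holds estimated counts (expected counts) per transcript, which the authors made with Salmon 1.4.0, per the submitters' processing notes. GRCm39, DESeq2 1.32.0 and FastQC 0.11.9 are named there as well. The values are whole numbers; rounding and filtering are not given in the sources used here.

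Counts of the 74764 transcripts were summed per gene. GENCODE M21 transcript sequences (GRCm38) matched 99.7% of transcripts and 99.82% of counts and gave GC content, length and the printed sequences. They served no coordinates, since the builds differ. A gene's GC content and length are means over its transcripts, weighted by TPM. Genes were filtered with filterByExpr, scaled by TMM and tested with edgeR 4.0.16's robust two-sided quasi-likelihood F test (limma 3.58.1, R 4.3.3) over all genes tested, at a Benjamini-Hochberg adjusted p of 0.05, and again per transcript. CPM is the count over the TMM-scaled library size, and TPM also divides by annotated length. The offset was each library's spline trend of log2 counts on GC content (6 degrees of freedom) and log2 length (5 degrees of freedom). Steps were tested on simulated data. No libraries were duplicates. The labels give 4 samples a group and do not tie each to 1 animal, so p-values measure the spread between these samples.

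Full values are given for each channel called in either fit and for the most expressed of each subfamily, with called transcripts and the main transcript of each. Of each partner list the 2 called genes of smallest p are named. The other channels given with values in the text (Kcnj2, Kcnk4 and Kcnk10 among them) were chosen after their values were seen. The genes, their 4 partner lists and 11 marker lists, the alternatives and the tests were chosen with earlier results of these data known. Alternatives were DESeq2 size factors, upper-quartile scaling, no filter, 1 CPM in 4 libraries, a replicate block, GC offsets, DESeq2 1.42.0, limma-voom, an adjusted p of 0.1 and libraries left out. Plots were drawn with matplotlib 3.10.9 from tables made with NumPy 2.4.6 and pandas 2.3.3 (Python 3.11.15).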

Additional observations from a re-analysis of the deposited data

Results flagged for a closer look

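In 62 groups of 4 libraries (31 genes in KU55933 and in vehicle), 4 held a library far from the other 3 by Dixon's criterion, and chance gives about 1 in 20 such groups. Kcnt1, the Slack channel gene, was marked in both groups. KU55933 1 had 27.7 CPM where the other KU55933 libraries had 48.4 to 50.0 CPM, and vehicle 3 had 59.6 CPM where the other vehicle libraries had 32.5 to 35.3 CPM. Kcnj2 had 17.8 CPM in KU55933 2, against 11.2 to 11.6 CPM in the other KU55933 libraries. Kcnj4 had 25.1 CPM in KU55933 2, against 28.5 to 28.7 CPM in the other KU55933 libraries, and every KU55933 library was below every vehicle library.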

How the results depend on the processing

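Scaling by DESeq2 size factors or upper quartile, both filters, DESeq2, limma-voom and an adjusted p of 0.1 gave 5 to 6 channels lower and 2 to 4 higher, against 5 and 3. Members called lower numbered 1 with the GC offset and 1 with the GC and length offset, and members called higher 0 and 1. Leaving out 1 library gave 3 to 7 lower and 1 to 3 higher, and with the offset 0 to 3 lower and 0 to 1 higher. Without KU55933 1 and 2 together 2 were lower and 0 higher, and with the offset as well, an alternative chosen after seeing the data, 0 and 0. The replicate block gave 8 lower and 4 higher, and 3 and 2 together with that correction. Whether the replicate numbers pair the libraries could not be settled. Same-numbered libraries correlated at 0.0393 to 0.294 and the other pairs at -0.221 to 0.115, and not every library correlated best with its own number.

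Member transcripts called lower numbered 7 and higher 1. With either offset, with or without the replicate block, 0 and 0 were called, as without KU55933 1 and 2 together with the offset. The replicate block alone gave 4 and 0, limma-voom 4 lower, no filter 0 higher, and leaving out KU55933 1 and 2 together 2 and 0. Leaving out 1 library gave 2 to 6 lower and 0 to 1 higher, and with the offset 0 and 0. Over all transcripts the median log2 change was -0.07, and 0.04 with upper-quartile scaling, where 68.3% of calls were lower, against 84.3%.

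Some log2 changes changed sign. With the GC offset, the GC and length offset, and that offset with the replicate block, they were 0.03, 0.02 and 0.03 for Kcnj11, -0.06, -0.10 and -0.14 for Kcnk9, 0.12, 0.14 and 0.15 for Kcnmb4, 0.13, 0.19 and 0.10 for the Kcnk12 transcript, and 0.53, 0.55 and 0.54 for the Kcnmb4 transcript, and Kcnu1 was at -0.0004 with the GC offset. Without KU55933 1 and 2 Kcnn2 was at 0.10. With the offset as well the values were 0.06 for Kcnn2, 0.01 for Kcnj11, 0.07 for Kcnmb4, -0.01 for Kcnma1, -0.04 for Kcnu1, 0.18 for the Kcnk12 transcript and 0.46 for the Kcnmb4 transcript. Leaving out 1 library, with or without the offset, gave ranges of -0.0043 to 0.21 for Kcnj10, -0.40 to 0.08 for Kcnj11, -0.27 to 0.04 for Kcnj3, -0.06 to 0.52 for Kcnk13, -0.69 to 0.08 for Kcnk5, -0.27 to 0.23 for Kcnk9, -0.01 to 0.30 for Kcnma1, -0.93 to 0.21 for Kcnmb4, -0.15 to 0.03 for Kcnn2, -0.03 to 0.21 for Kcnu1, -3.04 to 0.51 for the Kcnk12 transcript and -0.99 to 0.68 for the Kcnmb4 transcript. These ranges pooled the fits with and without the offset. For Kcnmb4 the values were -0.93 to -0.79 without the offset and 0.07 to 0.21 with it. For its transcript they were -0.99 to -0.75 and 0.48 to 0.68. Within either fit, no library left out turned the sign of Kcnmb4 or its transcript. Without the offset Kcnj11 stayed at -0.40 to -0.28 and the Kcnk12 transcript at -3.04 to -2.31. With it they ranged from -0.05 to 0.08 and from -0.03 to 0.51. The causes were not tested. Of the other values for single genes, transcripts and classes, 593 kept their direction and side of the threshold, 220 missed it, 6 newly passed it and 16 medians moved. Over all genes 3338 were called, 304 with the offset and 4444 with the replicate block. Low counts limit Kcnk12, Kcnk5 and Kcnj5.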
